A study of Homo sapiens with 6 samples.

Results

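The 9 genes described here encode HLA class I heavy chains and the proteins that load them with peptide: HLA-B, HLA-C, HLA-E, B2M, TAP1, TAP2, TAPBP, CALR and ERAP1. They were taken by name, all transcript rows of each gene were summed, and all 9 were found among the 26966 named genes and passed the filter on low values that left 15173 genes for testing. RNA-seq had been done on 3 libraries of UWB1.289 cells transduced with lentivirus carrying short hairpin RNA against HBO1 (shHBO1) and on 3 libraries of the same cells given a control hairpin (shCTRL). UWB1.289 is a human cell line from an ovarian carcinoma without working BRCA1, so both groups share that loss. HBO1, a histone acetyltransferase, is the product of the KAT7 gene. Both groups were transduced with polybrene at 10 µg/mL and, after 96 h, selected with puromycin at 1 to 3 µg/mL, per the labels. The labels do not state how many hairpins or clones were used, and nothing says that replicates 1 to 3 were separate cultures, so the p-values measure only the spread between these libraries.

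Class I molecules show peptides from inside the cell to cytotoxic T cells. In the endoplasmic reticulum a heavy chain pairs with the light chain beta-2-microglobulin (B2M) and is held by calreticulin (CALR) and tapasin (TAPBP) next to the transporter TAP1/TAP2, which brings in peptides that the aminopeptidase ERAP1 trims. Interferons raise most of these genes through IRF and NLRC5-dependent elements in their promoters, and tumours often show less of them.

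The promoters of the 4 genes with a sequence entry whose knockdown libraries all lay below the control libraries, and that of B2M, whose groups overlapped, are shown so that they can be read beside the values of these genes. Each is the 250 bases before the annotated start, from RefSeq on GRCh38.p14, 5′ to 3′ on the gene's strand. Capitals mark AANNGAAA, the core that IRF factors bind, on either strand.
HLA-B (GRCh38.p14, chr6:31357180-31357429, minus strand): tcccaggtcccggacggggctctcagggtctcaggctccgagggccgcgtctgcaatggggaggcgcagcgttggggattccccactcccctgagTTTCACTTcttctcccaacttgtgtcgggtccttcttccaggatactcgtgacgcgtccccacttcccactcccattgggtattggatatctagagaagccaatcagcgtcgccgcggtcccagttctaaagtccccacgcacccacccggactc
HLA-C (GRCh38.p14, chr6:31272093-31272342, minus strand): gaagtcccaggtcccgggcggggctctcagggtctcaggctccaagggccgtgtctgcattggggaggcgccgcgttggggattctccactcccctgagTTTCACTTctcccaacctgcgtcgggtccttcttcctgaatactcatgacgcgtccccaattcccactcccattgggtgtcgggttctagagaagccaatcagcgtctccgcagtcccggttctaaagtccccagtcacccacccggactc
TAPBP (GRCh38.p14, chr6:33314079-33314328, minus strand): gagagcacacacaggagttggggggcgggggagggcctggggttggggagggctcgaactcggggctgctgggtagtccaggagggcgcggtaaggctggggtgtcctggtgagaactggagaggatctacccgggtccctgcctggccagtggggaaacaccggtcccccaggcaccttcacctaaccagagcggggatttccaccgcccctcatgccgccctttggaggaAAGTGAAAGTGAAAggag
CALR (GRCh38.p14, chr19:12938359-12938608, plus strand): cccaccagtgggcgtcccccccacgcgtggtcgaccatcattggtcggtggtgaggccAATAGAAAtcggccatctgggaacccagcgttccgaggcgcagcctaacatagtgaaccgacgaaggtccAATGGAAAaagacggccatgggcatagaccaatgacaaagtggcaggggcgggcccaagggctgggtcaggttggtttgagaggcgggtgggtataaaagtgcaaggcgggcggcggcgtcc
B2M (GRCh38.p14, chr15:44711267-44711516, plus strand): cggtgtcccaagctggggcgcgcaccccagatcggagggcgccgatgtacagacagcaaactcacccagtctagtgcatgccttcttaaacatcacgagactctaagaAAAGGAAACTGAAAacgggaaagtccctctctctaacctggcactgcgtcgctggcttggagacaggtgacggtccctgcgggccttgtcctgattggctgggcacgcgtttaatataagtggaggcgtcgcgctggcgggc
HLA-B and HLA-C were 89.0% identical over 254 aligned columns, with the core at 155 to 148 bases before the start in HLA-B and 151 to 144 in HLA-C. The 8 genes with an entry had 10 windows, since TAP1 and ERAP1 have 2 each, and 8 of the 10 held the core, against 20.3% of all 35116 windows of this length. In TAPBP, TAP1, TAP2, B2M and ERAP1 it occurred as 2 overlapping copies, while each of the 2 copies in CALR overlapped a CCAAT box. TGACG, the core of the X2 box, was found in 4 of the 10 windows, those of HLA-B, HLA-C, B2M and TAP2, against 21.2% of all windows. CCAAT was found in 6 of the 10 windows and in 11240 of the 35116 windows. All 3 motifs were searched on both strands. A match is a string of letters in the reference and was not measured in these cells. HLA-E had no entry.

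The libraries held 35940400 to 39908703 recovered reads each. KAT7, the target, had normalized counts of 1008, 872 and 784 in shHBO1 replicates 1, 2 and 3, against 3616, 3952 and 3554 in shCTRL. Its log2 fold change (shHBO1 minus shCTRL throughout, on the log2(normalized count + 1) scale) was −2.07 (SE 0.11, limma adjusted p = 0.00123), and an exact two-sided permutation of the counts had p = 0.1, the lowest value possible with 3 libraries a group. All 10 ovarian epithelial markers had reads, and their summed level was 305652 to 361360 in shHBO1 and 325618 to 373268 in shCTRL, most of it keratins. Within that list the mucin MUC1 averaged 938 ± 291 in shHBO1 and 1463 ± 593 in shCTRL, and MUC16 averaged 744 ± 307 in shHBO1 and 972 ± 390 in shCTRL (SD, n = 3 each here and below). The log2 fold change of MUC1 was −0.73, −0.67 and −0.40 in pairs 1, 2 and 3, and that of MUC16 was −0.37, −0.39 and −0.42 (limma adjusted p with the replicate number as a block 0.0635 for MUC1 and 0.125 for MUC16). The folate receptor FOLR1 averaged 44.4 ± 18.2 in shHBO1 and 78.1 ± 21.9 in shCTRL. These 3 markers had the smallest p of the list. Of its 10 estimates 7 were below 0 and 3 above, with a median log2 fold change of −0.062. MUC1 and MUC16 also differed between replicate numbers (limma F test adjusted p = 0.00302 for MUC1 and 0.000791 for MUC16). Of 10 leukocyte markers, the summed level was 615 to 769 in shHBO1 and 601 to 775 in shCTRL, most of it CD68, and CD3D was at 0 reads in every library. CD14, at a mean of 18.6 ± 5.21 in shHBO1 and 38.9 ± 0.618 in shCTRL, was the leukocyte marker with the smallest p. Its groups did not overlap, with shHBO1 lower (1 of 5 tested leukocyte markers, against 4.44% of all genes). Of 9 fibroblast and endothelial markers, the summed level was 1737 to 2219 in shHBO1 and 1552 to 2477 in shCTRL, with PDGFRA and DCN at 0. The endothelial cadherin CDH5 averaged 743 ± 98.9 in shHBO1 and 1032 ± 199 in shCTRL. The collagen genes were higher in shHBO1 in all 3 pairs, COL1A1 at 813 ± 78.7 in shHBO1 and 688 ± 172 in shCTRL and COL1A2 at 322 ± 74.6 in shHBO1 and 262 ± 87.2 in shCTRL, and across the 5 members of that list in the fit the median was 0.22 in log2 units. No marker passed, and the part of these markers in the results was not tested. Fewer cells that make an RNA and less of it per cell cannot be told apart in such samples.

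The heavy chains HLA-B, HLA-C and HLA-E, tapasin and calreticulin were at 82.4 to 90.5% of their control means in shHBO1, and in each of these 5 genes every knockdown library lay below every control library. B2M was at 99.8%, and the transporter subunits and ERAP1 also had overlapping groups. Across all tested genes 4.44% had groups that did not overlap with shHBO1 lower. Of the 9 genes, 0 passed an adjusted p of 0.05 in either direction in limma without a block, where 0.00659% of all genes did (0.00659% lower and 0.0% higher), and 0 passed in edgeR or DESeq2. With the replicate number as a block, again 0 of the 9 passed, where 0.125% of all genes did (0.0857% lower and 0.0395% higher). At an unadjusted p under 0.05, HLA-C and TAPBP were lower without the block (2 of 9, against 1.81% of all genes) and all 5 were lower with it (5 of 9, against 5.9%). In the higher direction 0 of the 9 did, against 1.73% of all genes without the block and 5.41% with it. Without both libraries numbered 3 and with the block, HLA-B, HLA-C, HLA-E and TAPBP were lower and TAP2 higher past an adjusted p of 0.05 in limma (5 of 9, against 14.2% of all genes), with 1 residual degree of freedom among the 4 libraries.

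**Figure D1:**
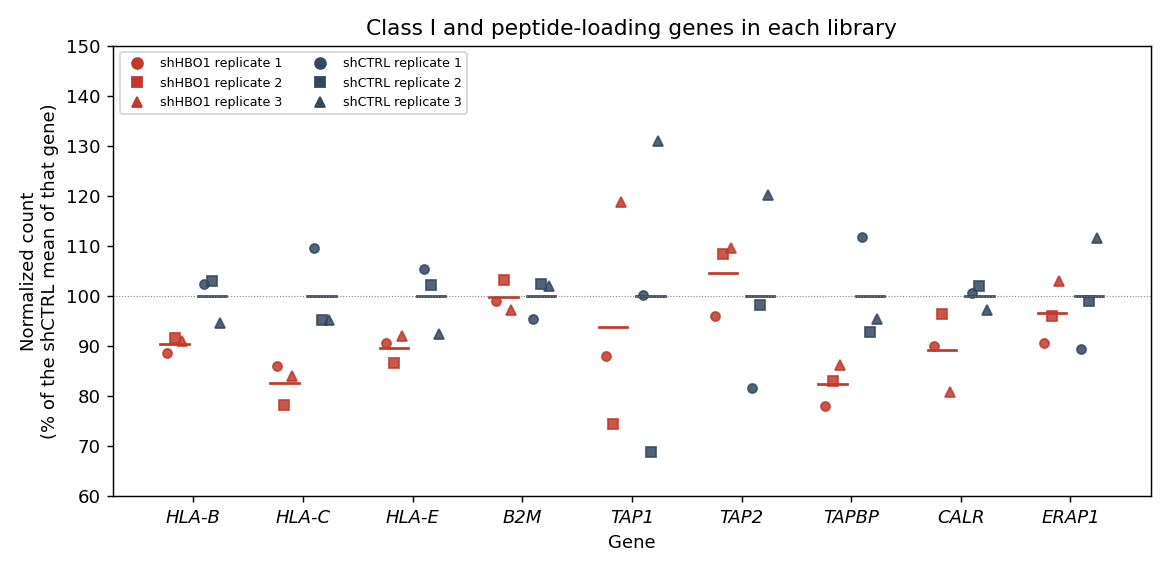
Normalized count of each gene in each library, as a percentage of that gene's shCTRL mean, with shHBO1 libraries in red to the left of shCTRL libraries in dark blue. Symbols mark replicate numbers and bars the group means. HLA-B, HLA-C, HLA-E, TAPBP and CALR have all 3 red points below all 3 blue points, B2M sits near 100% in both groups, and TAP1 ranges from 68.8 to 131% within shCTRL alone.

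Per kilobase of transcript, B2M RNA was the most abundant of the 7 genes for which a length could be matched, and TAP1 RNA the least. B2M had 20993 ± 641 normalized counts per kb in shHBO1 and 21030 ± 834 in shCTRL. CALR followed with 12457 ± 1094 in shHBO1 and 13974 ± 345 in shCTRL. Among the heavy chains, HLA-B had 4701 ± 79.6 per kb in shHBO1 and 5196 ± 242 in shCTRL. HLA-C came next at 3500 ± 183 in shHBO1 and 4230 ± 328 in shCTRL, and HLA-E, the heavy chain that presents leader peptides to natural killer cells, was lower still at 1124 ± 34.7 in shHBO1 and 1253 ± 84.1 in shCTRL. TAP2 had 671 ± 69.9 in shHBO1 and 655 ± 130 in shCTRL, and TAP1 had 241 ± 58.5 in shHBO1 and 257 ± 80.1 in shCTRL. The HLA-C level rests on the transcript row with a length, 95.7% of its reads. With all its reads set to that length, HLA-C reached 4847 per kb, above the lowest HLA-B library at 4610, so the ranges of HLA-B and HLA-C overlapped. The other neighbours in this order did not overlap over the 6 libraries. No length was matched for TAPBP or ERAP1. Class I genes are highly polymorphic and alike, so reads can be lost or shared between them. How far this touched the levels was not tested.

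HLA-C, a classical heavy chain, had 5833, 5311 and 5703 normalized counts in shHBO1 replicates 1, 2 and 3, against 7446, 6462 and 6458 in shCTRL. The 3 knockdown values lay below the lowest control value, and shCTRL replicate 1 stood above the other controls. The mean was 5616 ± 272 in shHBO1 and 6789 ± 569 in shCTRL, a log2 fold change of −0.27 (SE 0.082, 95% confidence interval −0.46 to −0.08). It did not pass (limma adjusted p = 0.9999, and 0.167 with the replicate block). The pairs numbered 1, 2 and 3 gave −0.35, −0.28 and −0.18.

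HLA-B, the other classical heavy chain measured here, had 7131, 7361 and 7323 normalized counts in shHBO1 replicates 1, 2 and 3, against 8235, 8274 and 7606 in shCTRL. The knockdown libraries were close together, and shCTRL replicate 3 was the control nearest to them. The difference was −0.14 in log2 units with an SE of 0.065 (95% interval −0.30 to 0.0082), and it did not pass (limma adjusted p = 0.9999, and 0.403 with the block). In pairs 1, 2 and 3 it was −0.21, −0.17 and −0.05. HLA-B and HLA-C together held 12888 ± 189 normalized counts in shHBO1 and 14827 ± 812 in shCTRL.

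HLA-E had 2952, 2823 and 2996 normalized counts in shHBO1, against 3433, 3329 and 3013 in shCTRL, in replicate order. The groups were barely apart, since shCTRL replicate 3 was only just above the highest knockdown library. On the log2 scale the difference was −0.15 with an SE of 0.077 (95% interval −0.33 to 0.02), short of the threshold (limma adjusted p = 0.9999, and 0.438 with the block). Pair 3 gave −0.0080, against −0.22 and −0.24 in pairs 1 and 2.

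B2M, the light chain shared by these heavy chains, had 19621, 20470 and 19300 normalized counts in shHBO1 replicates 1, 2 and 3, against 18925, 20320 and 20250 in shCTRL. The groups overlapped fully. The log2 fold change was −0.0022 (SE 0.065), with a 95% confidence interval of −0.15 to 0.15 that still contains the sizes estimated for HLA-B. Set against B2M within each library, the log2 ratio of HLA-C was −1.82 ± 0.11 in shHBO1 and −1.55 ± 0.18 in shCTRL. That of TAPBP was −2.03 ± 0.09 in shHBO1 and −1.76 ± 0.20 in shCTRL, and that of CALR was 0.26 ± 0.09 in shHBO1 and 0.42 ± 0.07 in shCTRL. These 3 ratios did not overlap between groups (exact two-sided permutation p = 0.1 each, the smallest possible). With Benjamini-Hochberg adjustment over the 8 ratios compared, the exact p was 0.267 for each of the 3. How often the ratio of other genes to B2M did not overlap between groups was not computed. Because B2M changed by only −0.0022, the ratio differences of HLA-C, TAPBP and CALR repeat their fold changes and are not separate results. Without shCTRL replicate 1 the difference in log2 ratio was −0.17 for HLA-C, against −0.27 with it, and −0.16 for TAPBP, against −0.27 with it. The ratios of HLA-B (exact p = 0.2) and HLA-E (exact p = 0.3) overlapped, with differences of −0.090 for HLA-B and −0.080 for HLA-E without shCTRL replicate 1, against −0.14 and −0.15 with it.

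TAPBP encodes tapasin, which bridges empty heavy chains to the transporter. It had 4583, 4880 and 5067 normalized counts in shHBO1 replicates 1, 2 and 3, against 6569, 5452 and 5615 in shCTRL. All knockdown libraries were below all controls, and shCTRL replicate 1 was the highest. The mean was 4843 ± 244 in shHBO1 and 5879 ± 603 in shCTRL, a log2 fold change of −0.28 (SE 0.090, 95% confidence interval −0.48 to −0.07, limma adjusted p = 0.9999, and 0.271 with the block). The pairs gave −0.52, −0.16 and −0.15, so pair 1 had the largest difference.

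CALR, the chaperone that holds the sugar chain of the heavy chain and also folds many other glycoproteins, had 23943, 25658 and 21514 normalized counts in shHBO1 replicates 1, 2 and 3, against 26753, 27154 and 25872 in shCTRL. The controls were close together, and shHBO1 replicate 2 was only slightly below the lowest of them. The estimate was −0.17 in log2 units with an SE of 0.081 (95% interval −0.36 to 0.02), and CALR did not pass (limma adjusted p = 0.9999, and 0.358 with the block). Without shHBO1 replicate 3 the estimate was −0.10. The pairs gave −0.16, −0.08 and −0.27. CALR and the other 4 genes whose groups did not overlap were lower in shHBO1 in all 3 pairs, as were 17.1% of all genes tested.

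**Figure D2:**
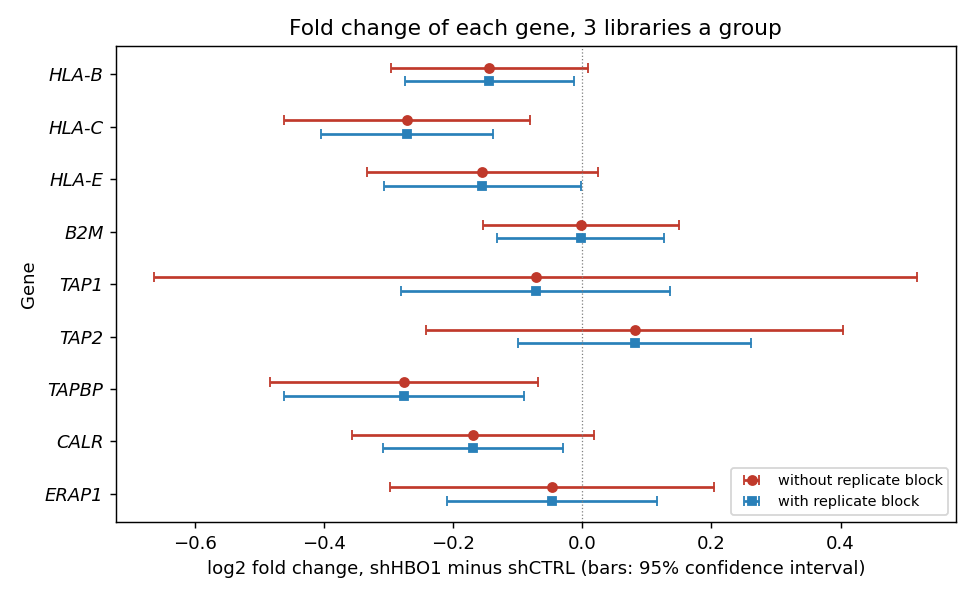
Log2 fold change of each gene, shHBO1 minus shCTRL, with 95% confidence intervals without (red circles) and with (blue squares) the replicate number as a block, 3 libraries a group. The estimates are equal in both fits; the interval of TAP1 is −0.66 to 0.52 without the block and narrower with it, −0.28 to 0.14, and HLA-C and TAPBP exclude 0 in both.

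TAP1 and TAP2 form the transporter, and both had overlapping groups. TAP1 had 670, 566 and 904 normalized counts in shHBO1 replicates 1, 2 and 3, against 763, 524 and 997 in shCTRL. In both groups number 3 was the highest and number 2 the lowest. TAP1 was the only 1 of the 9 genes past an adjusted p of 0.05 for a difference between replicate numbers (limma F test adjusted p = 0.0128), as were 9.68% of all genes, with a log2 level higher by 0.41 in number 3 than in number 1. With its most abundant transcript in place of the sum, that call was lost. Between hairpins TAP1 differed by −0.07 in log2 units (SE 0.25, 95% interval −0.66 to 0.52), and the estimate turned to 0.15 without shCTRL replicate 3 and 0.081 without shHBO1 replicate 2.

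TAP2 had 2631, 2970 and 3005 normalized counts in shHBO1 replicates 1, 2 and 3, against 2235, 2694 and 3295 in shCTRL. Both groups had their lowest library at number 1 and their highest at number 3, and the control range enclosed the knockdown range. It was the 1 gene of the 9 with an estimate above 0, at 0.08 (SE 0.14, 95% confidence interval −0.24 to 0.40), which turned to −0.057 without shCTRL replicate 1. Between replicate numbers TAP2 did not pass (limma F test adjusted p = 0.0818). Of these 9 genes 8 had an estimate below 0, as did 49.96% of all genes tested. The median of the 9 was −0.14, beside 0.00013 for all tested genes.

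ERAP1, which trims peptides to the length that class I molecules hold, had 1020, 1080 and 1159 normalized counts in shHBO1 replicates 1, 2 and 3, against 1005, 1115 and 1255 in shCTRL. The groups overlapped, and the order of the libraries was the same in each. Its difference was −0.05 in log2 units (SE 0.11), with a 95% interval of −0.30 to 0.20, and it was 0.035 without shCTRL replicate 3.

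The deposited table splits HLA-C, TAP1, TAP2, TAPBP and ERAP1 over several RefSeq transcripts, 17 rows for the 9 genes, and 16 were tested. Of these 0 passed an adjusted p of 0.05 without the block or with it in limma, against 0.00296% of all transcripts without the block and 0.0% with it. The 2 rows with the smallest p without the block were the main rows of HLA-C (limma unadjusted p = 0.0156) and TAPBP (0.0165). NM_002117 of HLA-C held 95.7% of the gene's counts in shHBO1 and 95.7% in shCTRL, and its log2 fold change was −0.27 (SE 0.084). NM_003190 of TAPBP had 4195, 4338 and 4806 normalized counts in shHBO1 replicates 1, 2 and 3, against 6325, 5135 and 5374 in shCTRL, a log2 fold change of −0.33 (SE 0.11). The minor row NM_172209 of TAPBP went the other way, with 343 ± 141 in shHBO1 and 214 ± 50.8 in shCTRL, and its groups overlapped.

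Single control libraries stood apart in how counts fell on the rows. NM_001292022 held 24.0, 29.7 and 29.3% of TAP1 counts in shHBO1 replicates 1, 2 and 3, against 28.0, 21.8 and 2.00% in shCTRL. NM_001040458 held 35.3, 43.4 and 36.1% of ERAP1 counts in shHBO1, against 34.5, 78.3 and 29.3% in shCTRL. The low TAP1 share was in shCTRL replicate 3 and the high ERAP1 share in shCTRL replicate 2, and no label says how reads were assigned to rows. The sums per gene do not depend on that split where each read was counted once.

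**Figure D3:**
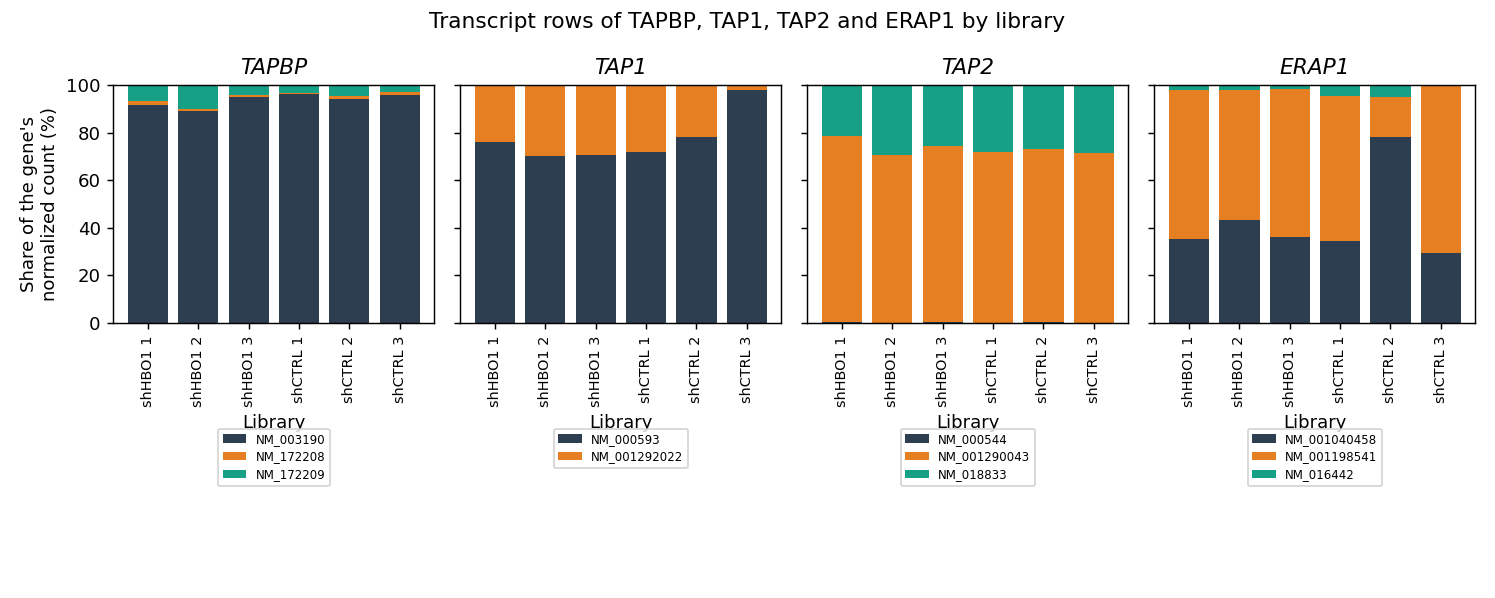
Share of each gene's normalized count held by its RefSeq transcript rows in every library, shHBO1 to the left of shCTRL. TAPBP is mostly NM_003190 throughout (88.9 to 96.3%), whereas shCTRL replicate 3 has almost no NM_001292022 of TAP1 (2.00%) and shCTRL replicate 2 has most ERAP1 counts on NM_001040458 (78.3%).

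Related genes were described from lists chosen with earlier results of these data known. In limma 0 members of any of them passed an adjusted p of 0.05, with or without the block. At an unadjusted p under 0.05 without the block, only PSME1 was lower and only ULBP1 higher among the genes of these 8 lists. The lists had 5 to 15 tested genes each, and 1.81% of all genes were lower and 1.73% higher at that threshold. In the list of peptide loading partners 7 of 8 tested estimates were below 0 and the median log2 fold change was −0.086. P4HB, a disulphide isomerase, averaged 18758 ± 1420 in shHBO1 and 20670 ± 898 in shCTRL (log2 fold change −0.14, SE 0.079). UGGT1, which checks the folding of glycoproteins, averaged 6290 ± 433 in shHBO1 and 5865 ± 205 in shCTRL (0.099, SE 0.075).

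Among 10 proteasome genes 7 estimates were below 0, with a median of −0.031. Both subunits of the interferon-inducible PA28 activator had groups that did not overlap with shHBO1 lower (2 of 10, against 4.44% of all genes). PSME1 had 4822, 4742 and 4953 normalized counts in shHBO1 replicates 1, 2 and 3, against 5518, 5506 and 5627 in shCTRL (log2 fold change −0.20, SE 0.061, limma adjusted p with the block 0.234). PSME2 had 5363, 5771 and 5563 in shHBO1, against 5865, 6111 and 6345 in shCTRL (−0.13, SE 0.067). POMP, which assembles proteasomes, averaged 11779 ± 600 in shHBO1 and 10711 ± 640 in shCTRL (0.14, SE 0.074). The catalytic immunoproteasome subunits, chosen after their values were seen, had log2 fold changes of −0.060 for PSMB8, −0.028 for PSMB9 and −0.15 for PSMB10.

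Of 7 peptide trimming enzymes 4 estimates were below 0, with a median of −0.0029. The cytosolic peptidases NRDC (log2 fold change −0.13, SE 0.091), BLMH (−0.11, SE 0.092) and THOP1 (−0.075, SE 0.067) had the smallest p-values of that list. The THOP1 groups did not overlap, with shHBO1 lower (1 of 7, against 4.44% of all genes). The 15 transcription factors of class I genes had a median of −0.0087, with 8 estimates below 0 and 7 above. NLRC5, the class I transactivator, had 335, 323 and 356 normalized counts in shHBO1 replicates 1, 2 and 3, against 431, 371 and 348 in shCTRL, and its groups overlapped. RFXANK, a subunit of the RFX complex on the X box, averaged 3458 ± 130 in shHBO1 and 3772 ± 165 in shCTRL, and IRF2 averaged 1061 ± 48.2 in shHBO1 and 1144 ± 21.3 in shCTRL. These 2 of the 15 did not overlap between groups, against 4.44% of all genes, and neither passed.

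Non-classical class I genes and stress ligands had a median of −0.023, with 7 of 12 estimates below 0. ULBP1, a ligand of the natural killer cell receptor NKG2D, had 666, 540 and 730 normalized counts in shHBO1 replicates 1, 2 and 3, against 504, 485 and 525 in shCTRL. All 3 knockdown libraries were above the controls (log2 fold change 0.34, SE 0.13, limma adjusted p with the block 0.258), as in 4.49% of all genes tested. HLA-F averaged 131 ± 44.9 in shHBO1 and 196 ± 51.8 in shCTRL, and RAET1G averaged 17.0 ± 9.50 in shHBO1 and 8.71 ± 8.15 in shCTRL. Both had overlapping groups.

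Of 11 class II genes, 5 passed the filter on low values, with a median of −0.022. CD74, the invariant chain, had 4334, 4369 and 4084 normalized counts in shHBO1, against 4823, 4899 and 4398 in shCTRL, without overlap (1 of 5, against 4.44% of all genes, with a log2 fold change of −0.14 and an SE of 0.073). HLA-DPA1 averaged 65.5 ± 15.1 in shHBO1 and 57.4 ± 9.38 in shCTRL, and HLA-DMA averaged 20.9 ± 9.55 in shHBO1 and 26.4 ± 11.2 in shCTRL. The 10 genes of interferon gamma signalling had a median of 0.012. The receptor chain IFNGR1 had a log2 fold change of −0.14 (SE 0.095), the feedback inhibitor SOCS1 had 0.92 (SE 0.47) at means of 35.4 ± 2.09 in shHBO1 and 20.5 ± 10.8 in shCTRL, and the GTPase GBP2 had −0.50 (SE 0.32). The 9 genes of class I turnover and surface control had a median of 0.0056. Within it the ubiquitin ligase MARCHF4 (log2 fold change 0.34, SE 0.32) and the signal peptide peptidase HM13 (−0.13, SE 0.12) differed between replicate numbers (limma F test adjusted p = 0.00627 for MARCHF4 and 0.0395 for HM13).

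**Figure D4:**
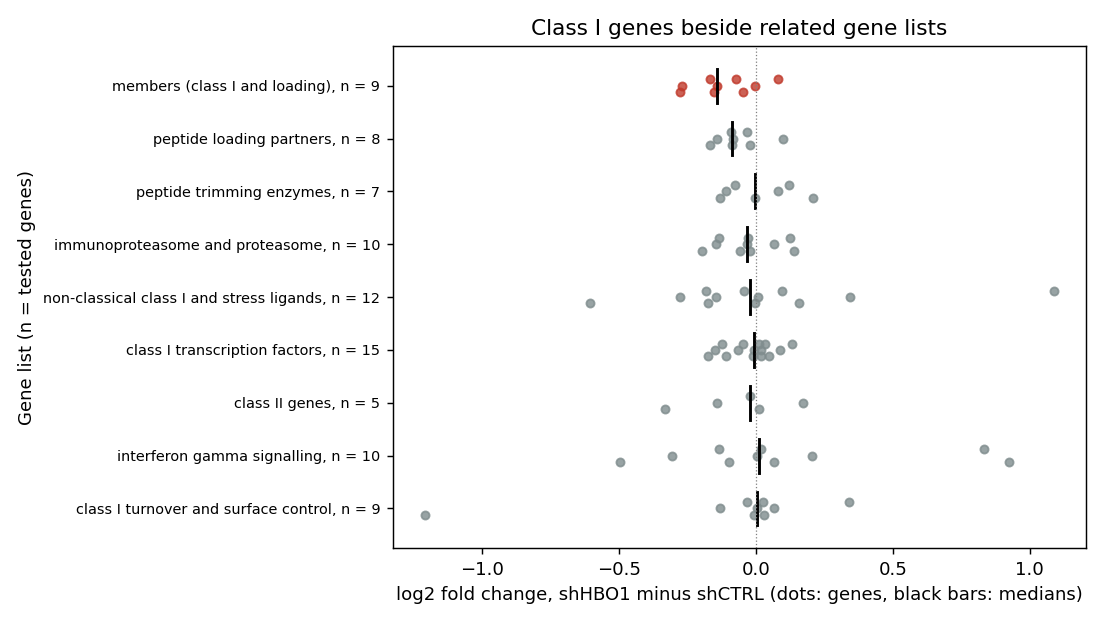
Log2 fold change, shHBO1 minus shCTRL, of every tested gene of the class I group (red) and of 8 related lists (grey), with black bars at the medians. The class I and loading genes have a median of −0.14, the loading partners −0.086, and the medians of the other lists lie between −0.031 and 0.012.

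Likeness to the class I heavy chains was measured as Pearson's r of log2 values with the sum of HLA-B and HLA-C over the 6 libraries, among 12209 genes with a mean of at least 100. The points share their libraries and the difference between groups. The genes most like them were CHLSN (r = 0.991), AGTRAP (0.989), ASPHD1 (0.989), SHFL (0.980) and CPVL (0.980). SHFL, an interferon-induced antiviral factor, had 563, 488 and 556 normalized counts in shHBO1 replicates 1, 2 and 3, against 808, 681 and 630 in shCTRL. CPVL, a carboxypeptidase, had 2364, 2400 and 2330 in shHBO1, against 3236, 3028 and 2691 in shCTRL. Of the 9 genes themselves, HLA-E (0.951) and TAPBP (0.921) ranked 48 and 101, CALR had 0.653, and TAP1 (0.042), ERAP1 (−0.14), B2M (−0.33) and TAP2 (−0.59) did not follow the heavy chains.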

How the data were processed

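The authors deposited 1 table of normalized signal, in 58215 rows, each for a RefSeq transcript, for 6 libraries. The submitters' processing notes name hg19, Bowtie 1.2.1.1, SAMtools and DESeq2, without roles. Strandedness, and how reads were split between transcripts, paralogs or alleles, were not stated. Dividing each library by its smallest step gave whole reads for 100% of values (within 0.01 read). Interval widths reflect spread between libraries, not only depth.

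Names came from RefSeq (GRCh38.p14) for 57191 rows and from GENCODE release 29 for 646; the 378 others were left out. Counts were summed per gene. Genes with a mean of at least 10 were fitted with limma-trend 3.58.1 (R 4.3.3) on log2(normalized count + 1), which understates changes of low genes, with Benjamini-Hochberg adjustment over all genes. edgeR 4.0.16 and DESeq2 1.42.0 on recovered reads were alternatives. The fits were tested on simulated counts with changes larger than those of the class I genes and no difference between replicate numbers. That test does not cover changes as small as those here. Replicates differed by 12.3 to 67.4 chi-square per degree of freedom.

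Deviations of same-numbered libraries correlated at 0.32, 0.19 and 0.48, all over 0.1, so the numbers were used as pairs, although no label names a shared day and shHBO1 replicate 1 correlated at 0.21 with shCTRL replicate 2. Named were the 9 genes, KAT7, the 3 genes of each list with the smallest p, and the 5 most like HLA-B plus HLA-C; 2 genes so named are not reported here. The genes and lists were chosen with earlier results of these data known. Transcript lengths were those of GENCODE transcripts paired with the RefSeq rows. No coordinates on hg19 were used.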

Additional observations from a re-analysis of the deposited data

How the results depend on the processing

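KAT7 passed in all 19 alternatives. Without a block, 1 gene of all tested passed in limma and edgeR, also in limma with each library left out. In DESeq2, likewise without a block, 19 passed. With the replicate block 19 passed in limma and 19 in edgeR. In each of these fits 0 of the 9 genes passed. Without both libraries numbered 3 and with the block, 2160 genes (14.2%) and 5 of the 9 passed: HLA-B (−0.19), HLA-C (−0.32), HLA-E (−0.23) and TAPBP (−0.34) lower and TAP2 (0.19) higher. That fit has 2 pairs and 1 residual degree of freedom among libraries, and the cause of its higher count was not tested. The most abundant transcript in place of the sum left 0 of the 9 genes differing between replicate numbers. HLA-B, HLA-C, HLA-E, TAPBP and CALR stayed below 0 in every alternative. Other signs turned. B2M was 0.012 with quantile normalization, 0.031 without both libraries numbered 3, with or without the block, and −0.036 to 0.016 with 1 library left out. TAP1 ran from −0.32 to 0.15, TAP2 from −0.057 to 0.22 and ERAP1 from −0.12 to 0.035 with 1 library left out, and ERAP1 was 0.48 by its most abundant transcript. No scaling moved the median of all genes by 0.1. The 3 libraries a group limit the precision of every value here.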
